A study of Oncorhynchus mykiss with 70 samples.

Results

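The bulbus arteriosus is the elastic outflow chamber of the fish heart, lying between the ventricle and the ventral aorta. Its 3 samples, those titled Bulbus Arteriosus, were set against the unweighted mean of the other 15 tissues whose titles do not hold the word muscle (45 samples, 3 per tissue), among them Heart, Gill and Tongue. These are 48 of 70 samples, the remaining ones being from 7 skeletal muscles. A NanoString code set, which counts barcoded probes bound to RNA without amplification, read 49 pathway genes and the reference genes actb, ef1a and tbp. All samples came from untreated adult clonal rainbow trout, 2 to 3 years old, of the Swanson and Oregon State University lines, reared in recirculating water. The labels mark Bulbus Arteriosus and all other tissues used here as male, except Ovaries. They do not say which line or fish gave a sample, whether fish were pooled, or which extraction method was used for which tissue. The p-values below therefore measure the spread between these samples, estimated for each gene over all tissues used here, not from Bulbus Arteriosus alone. Tissue cannot be told apart from extraction method.

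The label could not be checked against cell types. Of 22 markers listed for smooth muscle, elastic wall, endothelium, heart muscle, blood and skeletal muscle, 1 is in the panel, the skeletal muscle myostatin mstna1. Its probe also matches another myostatin locus. The probe read 1, 1 and 15 counts in Bulbus Arteriosus 1, 2 and 3 and was not above background in any of them. In bulk RNA, fewer cells of a type and less RNA per cell cannot be told apart.

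Activins are secreted dimers of inhibin beta chains. They bind type II receptors, which activate type I receptors, and these phosphorylate the receptor-regulated Smads (smad2, smad3), which enter the nucleus with the common Smad (smad4). Inhibitory Smads (smad6, smad7) and the decoy receptor bambi dampen the signal, follistatin binds the ligand outside the cell, and myostatin and gdf11 share the same receptors. In mammals SMAD6 and SMAD7 are known from the vessel wall and the cardiac outflow tract. Salmonid fish kept many genes in duplicate from a whole-genome duplication, and the names here end in 1 and 2 for such copies.

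With counts scaled to the reference genes, the 5 largest differences of the panel were all higher in Bulbus Arteriosus. They were in both inhibitory Smads and in 3 of the 4 genes of the activin beta B chain. The probe targets of these genes and of inhbba2 are shown, since each copy is read by its own probe. They are 100-base RNA targets from the authors' probe list, 5′ to 3′, all in lower case. The longest run any of them shares with another probe of the panel is 11 bases. Probes were compared only with each other, so whether a probe also matches the transcript of another copy was not tested. No second copy of smad7b2 or smad6a1 is on the panel. The authors place smad7b2 (LOC110536948) on chromosome 12, smad6a1 (LOC110509922) on 29, inhbba1 (LOC110520286) on 3, inhbba2 (LOC110501797) on 22, inhbbb1 (LOC110527500) on 7 and inhbbb2 (LOC110495886) on 18. For smad6a1 the RefSeq table names another chromosome, 6.
smad7b2: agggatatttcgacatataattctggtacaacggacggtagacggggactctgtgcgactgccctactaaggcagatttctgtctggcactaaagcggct
smad6a1: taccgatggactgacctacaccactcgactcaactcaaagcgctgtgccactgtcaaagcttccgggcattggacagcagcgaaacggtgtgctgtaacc
inhbba1: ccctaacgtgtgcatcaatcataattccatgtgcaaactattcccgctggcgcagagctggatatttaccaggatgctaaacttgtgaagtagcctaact
inhbba2: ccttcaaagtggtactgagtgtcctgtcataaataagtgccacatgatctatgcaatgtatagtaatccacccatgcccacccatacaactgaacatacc
inhbbb1: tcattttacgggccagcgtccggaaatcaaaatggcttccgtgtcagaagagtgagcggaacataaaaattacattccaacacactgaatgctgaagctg
inhbbb2: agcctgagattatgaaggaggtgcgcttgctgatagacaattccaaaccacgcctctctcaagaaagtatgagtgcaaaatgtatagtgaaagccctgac

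Levels are given as reference-scaled counts, the raw count divided by the sample's geometric mean of actb, ef1a and tbp, set relative to that of all samples. Probes can differ in efficiency, so levels of different genes are not set against each other. Total counts were 94972 to 121934 in Bulbus Arteriosus and 56080 to 269554 in the other samples. Of the 49 genes, 24 to 32 per Bulbus Arteriosus sample were above background (the mean plus 2 SD of the sample's negative controls), fewer on average than in any of the other 15 tissues. The gene tbp had 104, 34 and 110 counts in Bulbus Arteriosus 1, 2 and 3, the lowest mean of the 16 tissues. Bulbus Arteriosus 2 was the shallowest of the 3, with 1792 pathway counts, against 5990 in Bulbus Arteriosus 1 and 3142 in Bulbus Arteriosus 3. The divisor from the reference genes was 0.458 to 1.19 in Bulbus Arteriosus and 0.221 to 5.44 in the other samples, with a lower mean in 1 tissue.

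Against the mean of the other tissues, 20 of 49 genes passed the threshold (40.8%), 18 higher in Bulbus Arteriosus (36.7%) and 2 lower (4.08%), by edgeR's quasi-likelihood test with Benjamini-Hochberg adjustment over 49 genes and a threshold of 0.05. The mean of the other tissues was taken over their log levels, so each difference is a ratio to their geometric mean. The median log2 difference of all 49 genes was 0.31. All 4 beta B genes, both inhibitory Smads, 4 of 7 common Smad genes, 4 of 7 type II receptors, 2 of 10 type I receptors, 1 of 3 receptor-regulated Smads and 1 of 2 bambi copies were higher. Among type II and type I receptors, 1 each was lower. These counts moved with the scale. With the mean of the pathway genes as the scale, 12 genes were higher and 7 lower and the median was −0.08, and with the NanoString positive controls 4 were higher and 7 lower, with a median of −0.88. On that last scale the sign turned for acvr1aa2, acvr1ba2, acvr2ab1, acvr2ab2 and smad4aa2. Under all 8 scalings inhbba1, inhbbb2, smad6a1 and smad7b2 were higher and acvr1bb1 was lower. All 18 higher genes were above background in all 3 Bulbus Arteriosus samples, as were 6 genes that passed in neither direction.

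**Figure D1:**
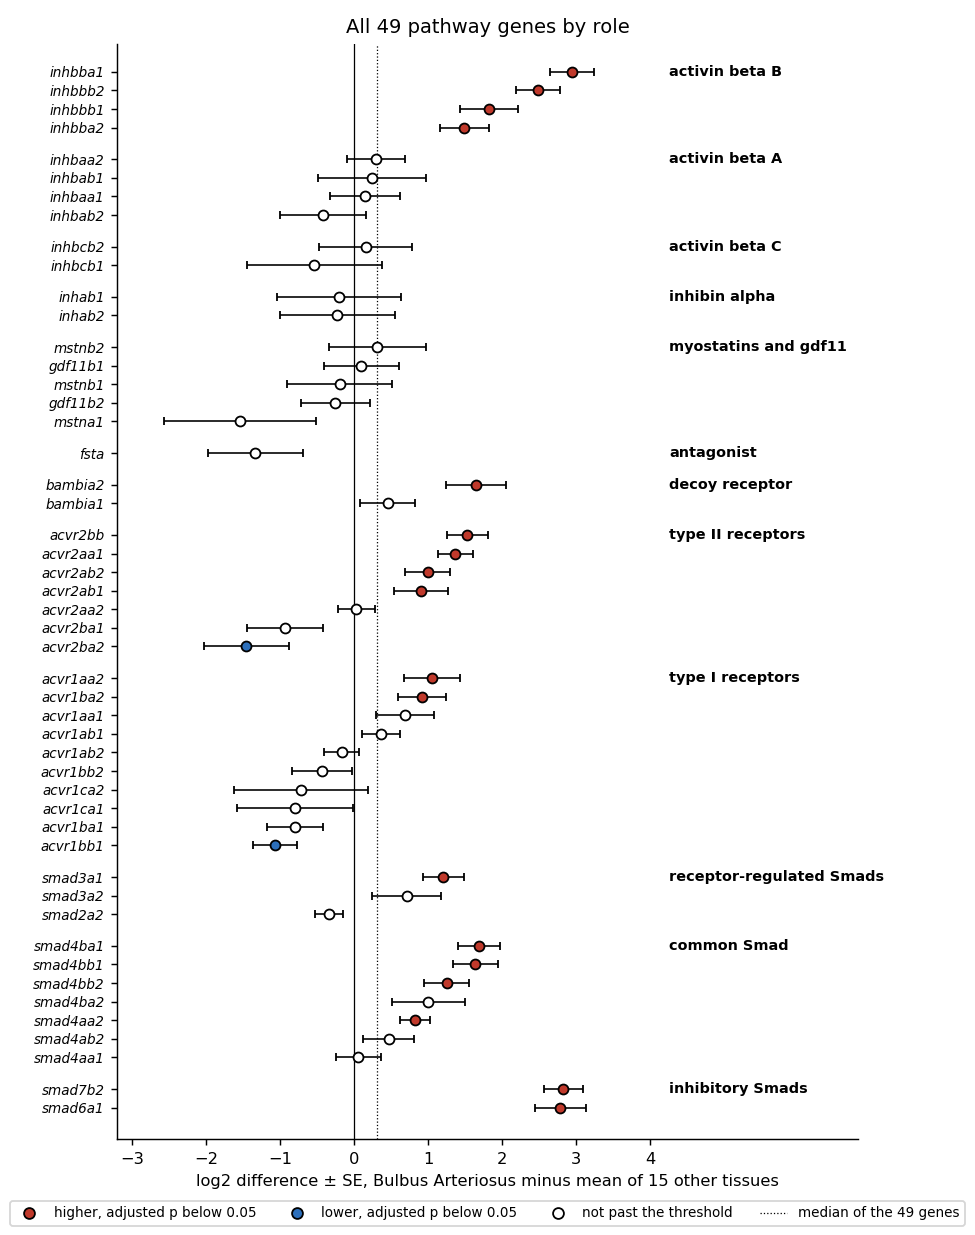
Log2 difference, Bulbus Arteriosus minus the mean of 15 other tissues, with its standard error, for 49 genes grouped by role. Filled points passed the threshold (red higher, blue lower), and the dotted line is the median of 0.31. The 5 points farthest to the right are inhbba1, smad7b2, smad6a1, inhbbb2 and inhbbb1.

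The inhibitory Smad smad7b2, whose mammalian counterpart blocks the type I receptor, was higher in Bulbus Arteriosus than in every other sample on the reference gene scale. Its reference-scaled counts were 430, 546 and 460 in Bulbus Arteriosus 1, 2 and 3, against 9.66 to 397 with a median of 51.1 in the 45 other samples. All 3 Bulbus Arteriosus samples were above all 45 others, which held for 1 of 49 genes (2.04%). The mean was 479 ± 60.0 (SD, n = 3) in Bulbus Arteriosus and 281 in Brain, the next highest tissue. The log2 difference from the mean of the other tissues was 2.82 ± 0.26 (SE, adjusted p = 2.16e-11), 7.08-fold over their geometric mean. It was 2.48 on the scale of the pathway genes and 1.54 on that of the positive controls, both past the threshold. Over the 735 gene and tissue pairs, it was higher than 13 of 15 tissues, and the differences from Brain and Heart did not pass the threshold. This count of tissues and those below hold for the reference gene scale. With adjustment over 49 genes, the difference from Gill did not pass on the pathway scale, and on the positive control scale its sign turned.

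The other inhibitory Smad, smad6a1, whose mammalian counterpart acts mainly on the BMP branch, was less even. It read 619, 129 and 201 in Bulbus Arteriosus 1, 2 and 3, against 5.32 to 401 with a median of 34.4 in the others. Bulbus Arteriosus 1 was above every other sample, while 7 other samples were above Bulbus Arteriosus 2. The log2 difference was 2.78 ± 0.34 (SE, adjusted p = 9.65e-09), and 1.84 without Bulbus Arteriosus 1, still past the threshold. The differences from Gill, at a mean of 285, and from Heart did not pass the threshold.

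The activin beta B chain forms activin B. All 4 of its genes had their highest mean of the 16 tissues in Bulbus Arteriosus, with a median log2 difference of 2.15. In each, the lowest Bulbus Arteriosus sample was below the next highest tissue mean. For inhbba1 it was 58.1 against 117 in Heart, and for inhbba2 45.8 against 55.2 in Pelvic Fin. For inhbbb1 it was 67.7 against 75.1 in Ovaries, and for inhbbb2 74.3 against 82.7 in Brain. Over the panel, 8 of 49 genes had their highest tissue mean in Bulbus Arteriosus (16.3%), the other 4 being smad7b2, smad6a1, acvr2bb and smad4bb1. For smad6a1 and smad4bb1, Bulbus Arteriosus 2 and 3 were below the highest other mean, Gill at 285 and Visceral Fat at 174. Without Bulbus Arteriosus 1, the mean of the remaining samples was below the highest other tissue mean for inhbba1, inhbba2, smad6a1 and smad4bb1. These first ranks therefore rested on Bulbus Arteriosus 1, while those of inhbbb1, inhbbb2, smad7b2 and acvr2bb did not. The ranks themselves were not tested. For inhbba1 the values were 302, 131 and 58.1 in Bulbus Arteriosus 1, 2 and 3, against 2.98 to 197 with a median of 21.5 in the others. The samples of Bulbus Arteriosus spread widely, and 4 other samples were above the lowest of them. The SE below comes from all tissues together, so it does not show how far these 3 samples lay apart. The log2 difference was 2.94 ± 0.30 (SE, adjusted p = 1.21e-10), and the differences from Heart (mean 117) and Brain did not pass the threshold.

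Its duplicate inhbba2 had 101, 45.8 and 55.4 in Bulbus Arteriosus 1, 2 and 3, against 4.47 to 97.8 with a median of 27.3 in the others. Its log2 difference was 1.49 ± 0.33 (SE, adjusted p = 0.000324), and it was higher than 7 of 15 tissues. For inhbbb2 the values were 255, 103 and 74.3 in Bulbus Arteriosus 1, 2 and 3, against 6.26 to 97.6 with a median of 22.6 in the others. It was higher than 14 of 15 tissues, the most of any gene, with Brain the exception, and its log2 difference was 2.48 ± 0.30 (SE, adjusted p = 6.04e-09). For inhbbb1 the values were 133, 67.7 and 90.5 in Bulbus Arteriosus 1, 2 and 3, against 3.58 to 136 with a median of 27.1 in the others. Its log2 difference was 1.82 ± 0.39 (SE, adjusted p = 0.000192), and an Ovaries sample was above all 3.

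Bulbus Arteriosus 1 held the highest value of the 3 for all 4 beta B genes. Without it, inhbba1 differed by 2.13 and inhbbb2 by 1.77 on the log2 scale, inhbbb1 by 1.52, and inhbba2 by 1.07 with an adjusted p of 0.0517, no longer past the threshold.

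**Figure D2:**
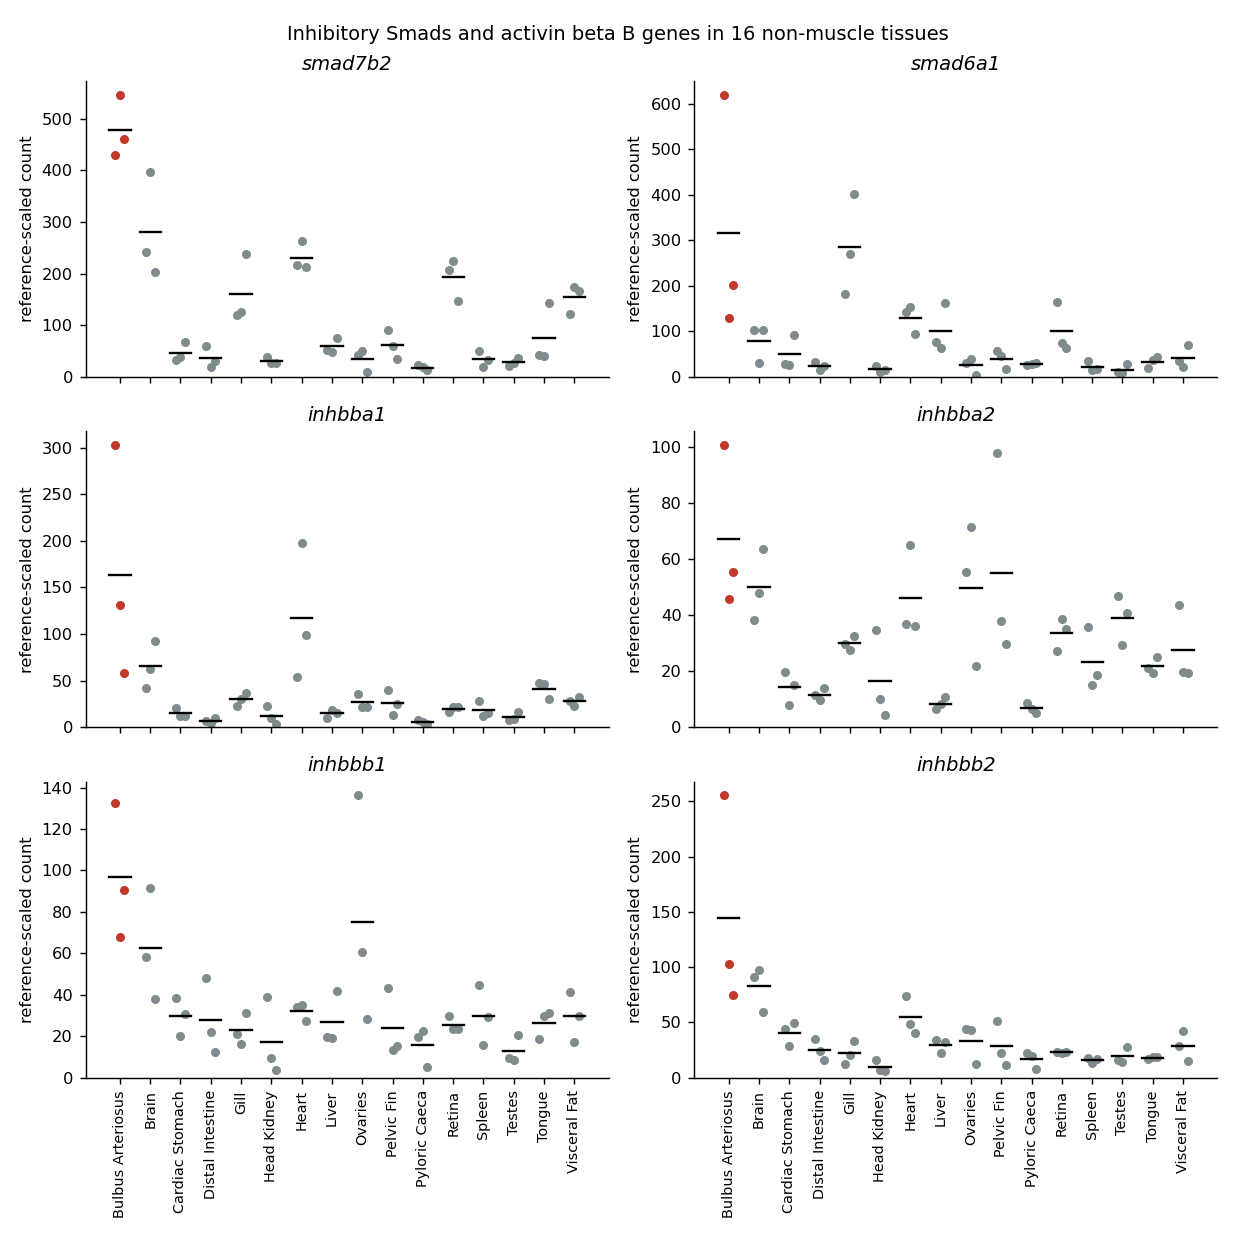
Reference-scaled counts of the inhibitory Smads and the beta B genes in 16 tissues, 1 point per sample, with a bar at the tissue mean and Bulbus Arteriosus in red at the left. For smad7b2 the 3 Bulbus Arteriosus samples, 430 to 546, are above all others, and for smad6a1, inhbba1 and inhbbb2 Bulbus Arteriosus 1 stands above the other 2.

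No other ligand gene passed the threshold. The 4 beta A genes had log2 differences of −0.42 to 0.29, the 2 beta C genes −0.54 and 0.16, the 2 inhibin alpha genes −0.23 and −0.21, and the 5 myostatin and gdf11 probes −1.54 to 0.31. None of these ligand probes was above background in more than 1 Bulbus Arteriosus sample. Their differences therefore start from readings at or near background and cannot show that levels were alike. The antagonist follistatin (fsta), whose probe also matches another locus, read 5, 1 and 6 counts in Bulbus Arteriosus 1, 2 and 3. These were not above background, and the log2 difference was −1.34 ± 0.64 (SE, adjusted p = 0.0974). Bulbus Arteriosus 3 stood apart in several of these weak probes. The counts of inhab1, whose probe also matches the inhab2 locus, were 5, 8 and 34 in Bulbus Arteriosus 1, 2 and 3, and those of inhab2 were 5, 1 and 28. The counts of gdf11b1 were 6, 6 and 42, and those of inhbcb2 were 7, 6 and 26, and for these 4 genes Bulbus Arteriosus 3 alone was above background.

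Among the type II receptors, which bind the ligand first, acvr2bb was even across the samples. It read 40.3, 45.8 and 41.9 in Bulbus Arteriosus 1, 2 and 3, against 2.98 to 54.6 with a median of 14.2 in the others, a log2 difference of 1.53 ± 0.28 (SE, adjusted p = 1.75e-05). It was higher than 12 of 15 tissues. For acvr2aa1 the values were 375, 314 and 432 in Bulbus Arteriosus 1, 2 and 3, against 28.5 to 571 with a median of 146 in the others. Only Retina, with a mean of 436, was higher on average, and the log2 difference was 1.37 ± 0.24 (SE, adjusted p = 1.11e-05). Its duplicate acvr2aa2 had 85.7, 83.0 and 83.7 in Bulbus Arteriosus, a log2 difference of 0.03 ± 0.25 (SE).

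The copies acvr2ab2 and acvr2ab1 were higher by 0.99 ± 0.30 and 0.90 ± 0.37 on the log2 scale (SE, adjusted p = 0.00652 and 0.0467), and neither passed on the scale of the pathway genes. The acvr2ab1 call was lost without any 1 of the 3 Bulbus Arteriosus samples, and the acvr2ab2 call without Bulbus Arteriosus 2. Over all alternative and leave-one-out fits, the acvr2ab1 call was kept in 30, lost in 35 and turned in sign in 1. Many of those 35 left out a sample of another tissue. The receptor acvr2ba2 read 9, 1 and 14 counts in Bulbus Arteriosus 1, 2 and 3, not above background in any. Its log2 difference of −1.46 ± 0.58 (SE, adjusted p = 0.0403) therefore starts from a level at background. The means of the other tissues had a median of 22.5, with Liver highest at 245. The call was lost without Bulbus Arteriosus 1 or 2. Its duplicate acvr2ba1, whose probe also matches the acvr2ba2 locus, had a log2 difference of −0.93 ± 0.51 (SE).

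Of the 10 type I receptors, acvr1bb1 was lower. It read 39.5, 30.6 and 44.6 in Bulbus Arteriosus 1, 2 and 3, against 13.7 to 432 with a median of 85.1 in the others, a log2 difference of −1.07 ± 0.30 (SE, adjusted p = 0.00342). Of the 45 other samples, 32 lay above all 3 Bulbus Arteriosus samples. Bulbus Arteriosus was lower than 8 of 15 tissues and higher than 1. Its duplicate acvr1bb2 had a log2 difference of −0.43 ± 0.40 (SE). The genes acvr1aa2 and acvr1ba2 were higher by 1.05 ± 0.38 and 0.91 ± 0.32 on the log2 scale (SE, adjusted p = 0.0246 and 0.0208), and neither passed on the scale of the pathway genes. The acvr1ba2 call was lost without any 1 of the Bulbus Arteriosus samples, and the acvr1aa2 call without Bulbus Arteriosus 2 or 3. Their duplicates acvr1aa1 and acvr1ba1 had log2 differences of 0.69 ± 0.39 and −0.80 ± 0.38 (SE).

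**Figure D3:**
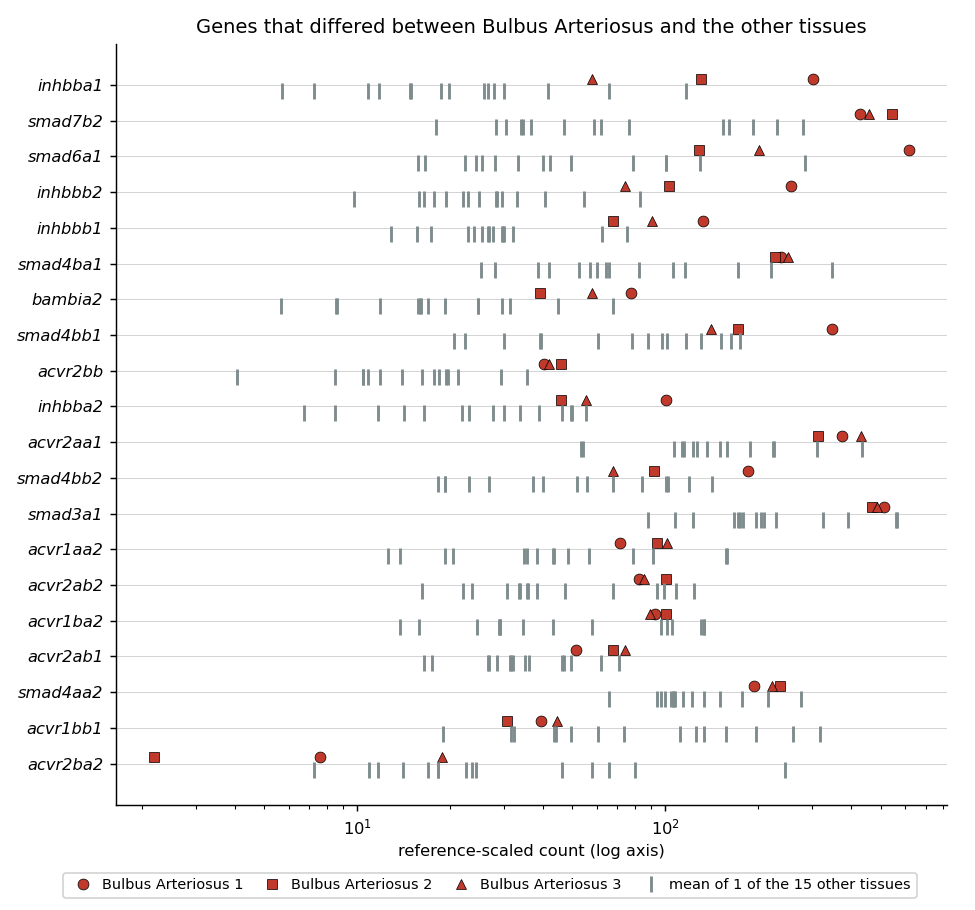
Reference-scaled counts on a log axis for the 20 genes past the threshold, in order of log2 difference, with the 3 Bulbus Arteriosus samples in red above the 15 other tissue means in grey. The 3 samples lie close together for acvr2bb (40.3 to 45.8) and smad4ba1 and far apart for smad6a1 (129 to 619).

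Inside the cell, smad3a1, a receptor-regulated Smad, read 514, 469 and 487 in Bulbus Arteriosus 1, 2 and 3, against 42.0 to 675 with a median of 198 in the others. Heart, at a mean of 565, was among the 2 tissues above it, and the log2 difference was 1.20 ± 0.28 (SE, adjusted p = 0.000504), or 0.79 on the scale of the pathway genes, with an adjusted p of 0.0515. The duplicate smad3a2 had a log2 difference of 0.71 ± 0.47 (SE), and smad2a2, whose probe matches both smad2a and smad2b, −0.34 ± 0.19 (SE).

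The common Smad was measured by 7 probes, of which smad4ab2 and smad4ba2 were above background in no Bulbus Arteriosus sample. Log2 differences were above 0 for all 7 on the reference gene scale, beside 32 of all 49 genes, for 6 of 7 on the pathway scale and for 3 of 7 on the positive control scale. For smad4ba1 the values were 238, 227 and 251 in Bulbus Arteriosus 1, 2 and 3, against 16.6 to 425 with a median of 65.7 in the others, a log2 difference of 1.68 ± 0.28 (SE, adjusted p = 6.93e-06). Brain alone had a higher mean. For smad4bb1 the values were 348, 172 and 140 in Bulbus Arteriosus 1, 2 and 3, against 10.4 to 271 with a median of 87.6 in the others, a log2 difference of 1.63 ± 0.30 (SE, adjusted p = 2.26e-05). For smad4bb2 they were 186, 91.7 and 67.5, against 13.6 to 178 with a median of 45.3 in the others. Its log2 difference was 1.25 ± 0.30 (SE, adjusted p = 0.000786), and 0.71 with an adjusted p of 0.17 without Bulbus Arteriosus 1. The fourth gene past the threshold, smad4aa2, was higher by 0.82 ± 0.20 on the log2 scale (SE, adjusted p = 0.00086), and by 0.39 on the scale of the pathway genes, with an adjusted p of 0.256. The others, smad4ba2, smad4ab2 and smad4aa1, had log2 differences of 1.00 ± 0.49, 0.47 ± 0.34 and 0.06 ± 0.30 (SE).

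The decoy receptor copy bambia2 read 77.3, 39.3 and 58.1 in Bulbus Arteriosus 1, 2 and 3, against 1.80 to 77.7 with a median of 19.1 in the others. Its log2 difference was 1.65 ± 0.40 (SE, adjusted p = 0.000812), and Heart alone had a higher mean, 67.7. Its duplicate bambia1 read 168, 98.2 and 56.7 in Bulbus Arteriosus 1, 2 and 3, a log2 difference of 0.45 ± 0.37 (SE).

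Set against each tissue in turn, Bulbus Arteriosus differed in 273 of 735 gene and tissue pairs (37.1%), higher in 206 (28.0%) and lower in 67 (9.12%). On the positive control scale the split turned, with 16 pairs higher and 86 lower, so the counts per tissue that follow hold for the reference gene scale. Fewest genes differed from Retina, 11, Gill, 12, and Heart, 14, and most from Pyloric Caeca, 26. Brain and Heart were the tissues against which lower genes outnumbered higher ones, with 3 higher and 15 lower against Brain and 5 higher and 9 lower against Heart. As a description over 49 genes, which are not independent replicates, the profile of Bulbus Arteriosus correlated with Gill at r = 0.67 and Retina at 0.37. With Heart and Pelvic Fin r was 0.30 each, and with Pyloric Caeca −0.40. Each profile was a tissue's log level with the mean of the tissues removed gene by gene, so the profiles share the subtracted mean.

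Heart is the chamber next to the bulbus. With adjustment over 49 genes, 8 differed (16.3%), 2 higher and 6 lower, and the groups did not overlap in 22 (44.9%). At an unadjusted threshold of 0.05, 21 differed. The pathway scale gave 12 higher and 10 lower. Higher in Bulbus Arteriosus were acvr2bb, at 40.3, 45.8 and 41.9 in Bulbus Arteriosus, against 11.4, 15.4 and 4.52 in Heart, and smad4bb2, at 186, 91.7 and 67.5 in Bulbus Arteriosus, against 56.9, 49.8 and 13.6 in Heart. Their log2 differences were 1.87 ± 0.47 and 1.47 ± 0.49 (SE, adjusted p = 0.00433 and 0.0343). In Heart the mean raw count of acvr2bb was 7.67, and the negative controls averaged 4.875, 4.75 and 4.125 in Heart 1, 2 and 3. Its difference therefore sets Bulbus Arteriosus against a mean reading near background. Heart 1 and 3 were shallow, with 1522 and 837 pathway counts. The common Smad copy smad4ab2, at 15.1, 15.3 and 23.0 in Bulbus Arteriosus, against 125, 131 and 90.4 in Heart, was lower, and was not above background in any Bulbus Arteriosus sample.

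For smad4ab2 the log2 difference was −2.70 ± 0.48 (SE, adjusted p = 9.45e-05), which sets Heart against a reading at background. The call was kept under every alternative tried, with values from −3.50 to −1.28. The receptor acvr1bb1 read 39.5, 30.6 and 44.6 in Bulbus Arteriosus, against 154, 161 and 158 in Heart, a log2 difference of −2.04 ± 0.39 (SE, adjusted p = 0.000124). The other lower genes were acvr2ba2 (−2.25), acvr2ba1 (−1.86), acvr1ab2 (−1.26) and smad2a2 (−0.80), with acvr2ba1 and acvr2ba2 not above background in Bulbus Arteriosus. The acvr2ba1 probe also matches the acvr2ba2 locus, so the calls of this pair are not independent. The calls of acvr2ba1, acvr2ba2 and smad2a2 were lost without Bulbus Arteriosus 1 or 2 or Heart 1 or 2, that of acvr2ba1 also without Heart 3, and that of smad4bb2 without Bulbus Arteriosus 1, Heart 2 or Heart 3.

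On the reference gene scale the beta B and inhibitory Smad genes did not pass against Heart when adjusted over 49 genes. On the pathway scale inhbbb1 (1.79), inhbbb2 (1.65), smad6a1 (1.53) and smad7b2 (1.25) did pass, with adjusted p-values of 0.00545, 0.00545, 0.0259 and 0.00899 by edgeR, and inhbba1 and inhbba2 did not. For smad7b2 the values were 430, 546 and 460 in Bulbus Arteriosus, against 216, 263 and 212 in Heart, which do not overlap, and the log2 difference was 1.05 ± 0.49 (SE, adjusted p = 0.09). For inhbba1 they were 302, 131 and 58.1 in Bulbus Arteriosus, against 54.0, 197 and 99.5 in Heart, which overlap, with 0.47 ± 0.54 (SE, adjusted p = 0.507). The gene inhbbb2 differed by 1.41 ± 0.54 (SE, adjusted p = 0.0557). It passed in the adjustment over 735 pairs, and over 49 genes without Bulbus Arteriosus 3 (adjusted p = 0.0274).

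Gill receives the blood that leaves the bulbus. Against it 11 genes differed (22.4%), all higher in Bulbus Arteriosus, with a median log2 difference of 0.92 over all 49 genes, and the groups did not overlap in 17 (34.7%). On the pathway scale 4 were higher and 1 lower. The largest was bambia2, at 77.3, 39.3 and 58.1 in Bulbus Arteriosus, against 7.45, 5.76 and 12.6 in Gill, a log2 difference of 2.74 ± 0.68 (SE, adjusted p = 0.0026). The gene inhbbb2 read 255, 103 and 74.3 in Bulbus Arteriosus, against 12.4, 20.7 and 33.0 in Gill, a log2 difference of 2.68 ± 0.55 (SE, adjusted p = 0.000413). For smad4ba1 the values were 238, 227 and 251 in Bulbus Arteriosus, against 34.8, 32.2 and 49.4 in Gill, 2.62 ± 0.49 (SE, adjusted p = 0.000193).

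The same comparison gave log2 differences of 2.44 for inhbba1, 2.08 for inhbbb1, 1.95 for acvr2bb, 1.57 for smad7b2, 1.42 for smad4ab2, 1.27 for acvr1ab1, 1.23 for smad3a1 and 0.92 for smad4aa2. On the positive control scale the sign turned for smad7b2, smad4ab2, acvr1ab1, smad3a1 and smad4aa2. For smad4ab2 the mean raw counts were 14 in Bulbus Arteriosus and 16 in Gill, and smad4ab2 was not above background in any Bulbus Arteriosus sample, so its value compares readings near background. The calls of bambia2, inhbbb2, smad4ba1, inhbba1 and acvr2bb were kept without any 1 Bulbus Arteriosus or Gill sample. On other scales the acvr2bb call was less firm. It was lost on the pathway and positive control scales, with TMM or DESeq2 size factors as the scale, and with negative controls subtracted. The calls of bambia2, inhbbb2, smad4ba1 and inhbba1 were lost only on the positive control scale. The calls of acvr1ab1, inhbbb1, smad3a1, smad4aa2, smad4ab2 and smad7b2 were lost without Gill 1 or Gill 2. Each was also lost on the pathway and positive control scales, and all but inhbbb1 with TMM or DESeq2 size factors as the scale. All of them but acvr1ab1 were also lost without at least 1 Bulbus Arteriosus sample. Unlike these, smad6a1 read 619, 129 and 201 in Bulbus Arteriosus, against 183, 271 and 401 in Gill, which overlap, a log2 difference of 0.15 ± 0.62 (SE, adjusted p = 0.894).

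**Figure D4:**
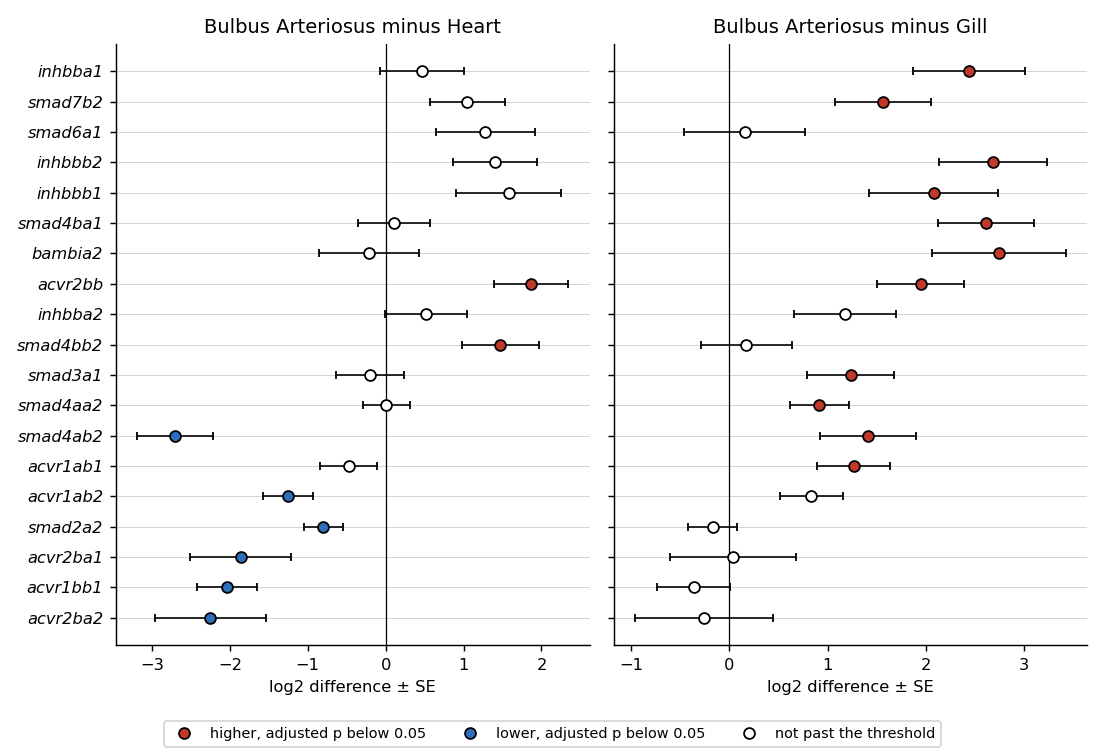
Log2 difference with its standard error, Bulbus Arteriosus minus Heart (left) and minus Gill (right), for the genes past the threshold in either and for smad6a1 and inhbba2. Red is higher in Bulbus Arteriosus and blue lower; smad4ab2, not above background in Bulbus Arteriosus, lies at −2.70 against Heart and at 1.42 against Gill.

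The balance of duplicate copies was compared as the ratio of copy 1 to copy 2 within each sample, which does not depend on the scale. The ratio itself has no absolute meaning, since probes differ in efficiency, but its difference between tissues can be tested. Of 21 pairs, 6 differed between Bulbus Arteriosus and the mean of the other tissues (28.6%). In the acvr2ba and inhab pairs, which did not differ, the probe of copy 1 also matches the copy 2 locus. Their ratios therefore do not separate the copies. The ratio of acvr2aa1 to acvr2aa2 was 4.37, 3.79 and 5.16 in Bulbus Arteriosus 1, 2 and 3, against a median of 1.79 in the other tissues, and only Retina, at 5.04, exceeded the ratio of summed counts of 4.50. The log2 difference was 1.34 ± 0.26 (SE, adjusted p = 0.000137).

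The ratio of acvr1ba1 to acvr1ba2 ran the other way. It was 0.50, 0.109 and 0.53 in Bulbus Arteriosus 1, 2 and 3, against a median of 0.972 in the other tissues. By summed counts it was 0.428, lower than in all 15. Tongue (0.523), Pelvic Fin (0.527) and Visceral Fat (0.575) were close to Bulbus Arteriosus 1 and 3. Distal Intestine (9.79) and Pyloric Caeca (6.72) were far above and enter the mean of the other tissues. The log2 difference was −1.74 ± 0.37 (SE, adjusted p = 0.000341). Both of these pairs passed under every alternative. The ratio of inhbba1 to inhbba2 was 3.00, 2.86 and 1.05 in Bulbus Arteriosus 1, 2 and 3, against a median of 0.861, and only Heart, at 2.79, exceeded the summed ratio of 2.54. Its log2 difference of 1.26 ± 0.30 (SE, adjusted p = 0.00117) became 0.93 without Bulbus Arteriosus 1, with an adjusted p of 0.0809.

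The ratios of acvr1ab, bambia and smad4aa differed by 0.52 ± 0.16, −1.26 ± 0.47 and −0.76 ± 0.29 on the log2 scale (SE, adjusted p = 0.0151, 0.0426 and 0.046). Without Bulbus Arteriosus 3 none of these 3 passed, with values of 0.35, −0.86 and −0.96. Without Bulbus Arteriosus 1, bambia and smad4aa did not pass, and without Bulbus Arteriosus 2, smad4aa did not. None of the 3 passed with negative controls subtracted, and bambia did not pass without Gill 2. The smad4aa call was lost in 22 of the alternative and leave-one-out fits, many of them without a sample of another tissue.

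**Figure D5:**
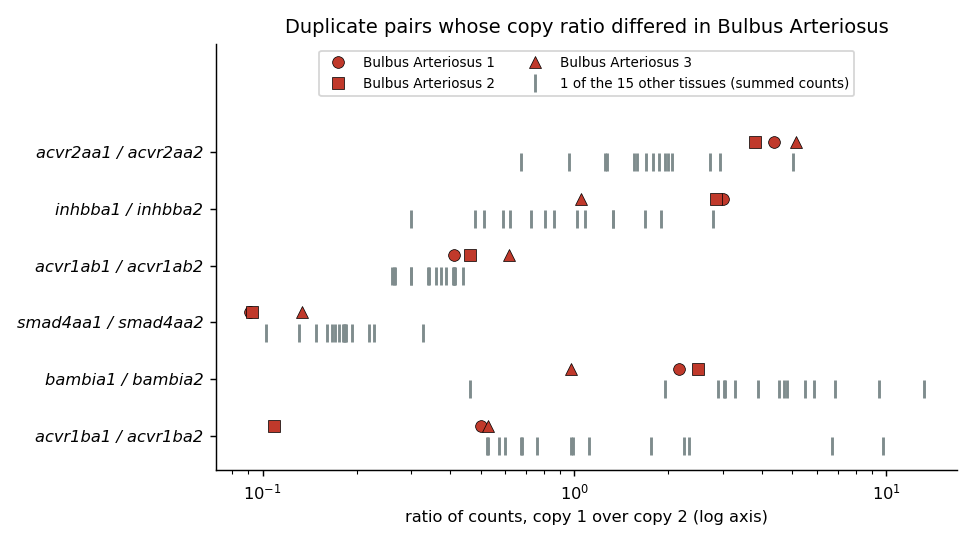
Ratio of copy 1 to copy 2 on a log axis for the 6 pairs that differed, with the 3 Bulbus Arteriosus samples in red above the 15 other tissues in grey (ratios of summed counts). For acvr2aa the Bulbus Arteriosus samples lie at 3.79 to 5.16, and for acvr1ba at 0.109 to 0.53.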

How the data were processed

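The authors deposited raw NanoString counts per probe and sample (66 probes: 49 pathway, 3 reference, 6 positive and 8 negative controls), not normalized per the file. A second deposited table of the authors' normalized signal pools replicates, and was used only to find tissues that share its scale. The lowest count was 1. Build and software are not given in the sources used here, and genes matched RefSeq identifiers (49 of 49). The chromosome differed for 2 of them, smad6a1 and smad4ba1, the latter on 14 by the authors and 32 in RefSeq.

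edgeR 4.0.16 (quasi-likelihood, R 4.3.3) was fitted to 48 samples, 1 coefficient per tissue, offset by the log geometric mean of the 3 reference genes. Copy ratios were tested in a model with a term per sample and a copy term per tissue. P-values are two-sided and adjusted by Benjamini-Hochberg over 49 genes, 735 gene and tissue pairs or 21 duplicate pairs and a threshold of 0.05. Scripts were tested on simulated data. Tables and figures used Python 3.11.15, pandas 2.3.3, numpy 2.4.6 and matplotlib 3.10.9. Alternatives used limma 3.58.1 on log2(scaled count + 10), DESeq2 1.42.0, other scalings, background subtraction and left-out samples.

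Members and gene lists were chosen with earlier results of these data known. Any panel gene could be named. Values per replicate were due for the 15 most changed genes each way (8 against Heart or Gill), provided the higher group averaged 20 counts or more, and for duplicate pairs past the threshold, with the duplicates of named genes beside them. Those values were not printed for acvr1aa2, acvr2ab2 and the acvr1ab, bambia and smad4aa ratios. Several genes that differed from Heart or Gill were given there by log2 difference alone. Some other genes are given too. No replicates were copies: the lowest chi-squared per degree of freedom was 9.13 between Bulbus Arteriosus samples and 2.40 over all tissues.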

Additional observations from a re-analysis of the deposited data

Results flagged for a closer look

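The balance of duplicate copies differed between Bulbus Arteriosus and the mean of the other 15 tissues in 6 of 21 pairs by edgeR's test of copy by tissue. The log2 differences of the ratio of copy 1 to copy 2 were 1.34 for acvr2aa, 1.26 for inhbba, 0.52 for acvr1ab, −0.76 for smad4aa, −1.26 for bambia and −1.74 for acvr1ba. In acvr1ba the counts of copy 1 in Bulbus Arteriosus were 55, 5 and 35, so the lowest ratio rests on 5 counts.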

How the results depend on the processing

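Against the mean of the other tissues, 5 of the 20 calls held under all 18 alternatives and all 48 leave-one-out fits: inhbba1, inhbbb2, smad6a1, smad7b2 and acvr1bb1. Counts of calls ran from 15 to 20 with 1 sample left out. Positive control scaling gave 11 (4 higher, 7 lower), and under it acvr1aa2 (−0.20), acvr1ba2 (−0.33), acvr2ab1 (−0.38), acvr2ab2 (−0.26) and smad4aa2 (−0.41) changed sign. Against Heart, 8 calls became 22 with pathway scaling, 21 with TMM, 22 with DESeq2 size factors, 1 with positive controls, 14 with ef1a and tbp, 13 with actb and ef1a, 13 with DESeq2's Wald test, and 16 with limma at a pseudocount of 10 or 50, and ran from 4 to 16 with 1 sample left out (4 without Bulbus Arteriosus 1 or Heart 2, 5 without Bulbus Arteriosus 2, 15 without Bulbus Arteriosus 3 or Ovaries 3, 16 without Head Kidney 1 and 13 without Pelvic Fin 3). Against Gill, 11 calls became 5 with pathway scaling, 7 with TMM, 6 with DESeq2 size factors and 6 with negative controls subtracted. Positive control scaling gave 0 by edgeR, with 7 at an unadjusted p under 0.05 (DESeq2 and limma, run on the reference gene scale alone, gave 11 to 13), and acvr1ab1 (−0.48), smad3a1 (−0.27), smad4aa2 (−0.79), smad4ab2 (−0.32) and smad7b2 (−0.18) changed sign. Leaving out 1 sample gave 5 to 12 (6 without Gill 1, 5 without Gill 2). Over all pairs of gene and tissue, positive control scaling gave 102 (16 higher, 86 lower) in place of 273, and leave-one-out 221 to 290. For copy ratios, 6 became 3 with negative controls subtracted and 10 with limma, and 3 to 6 with 1 sample left out (3 without Bulbus Arteriosus 1 or 3). The cause of these changes was not tested.

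Deviations of same-numbered samples correlated with a median r of −0.00545 over 15 tissues, and every r was above 0.1 in 1 tissue, Retina. The numbers were not taken as pairs, and the replicate block gave 20 calls, 7 against Heart and 11 against Gill. For the 16 genes above background in no Bulbus Arteriosus sample, low expression and limited depth cannot be told apart.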
